A study of Mus musculus with 14 samples.

Results

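The binding of the corepressor RCOR2 along the genome of mouse embryonic stem cells (ESCs) was set against the RNA level of every gene in wild-type (WT) ESCs. All 53366 peaks on chromosomes of the deposited RCOR2 peak list entered, of 53384 peaks over all lists of the series, and 1 peak on the contig of the tagged construct was left out. For each gene the peak summits inside its RefSeq interval, extended by 5 kb on each side, were counted. This was done for the 25011 of 25131 genes of the count table that could be placed on the mouse build GRCm38, genes without a single read included. A second count took the summits within 1 kb of the transcription start, for the 18635 genes with a listed start.

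RCOR2 binding was measured by chromatin immunoprecipitation and sequencing (ChIP-seq) in ESCs of the C57BL/6 background that express RCOR2 with an HA tag, in 2 samples pulled down on anti-HA agarose. The 2 negative controls were WT cells and cells expressing mCherry. The list was called on merged libraries, so binding has no replicate check, and the cells that carry the tagged protein are not the cells whose RNA was counted. RNA came from 2 libraries of WT ESCs of the same background, and all these cells were grown on gelatin in serum with leukemia inhibitory factor and kinase inhibitors. Nothing in the labels says that the 2 libraries were separate cultures.

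RCOR2 belongs to the CoREST family. CoREST proteins hold the histone demethylase LSD1 and the histone deacetylases HDAC1 and HDAC2 together on nucleosomes, where the enzymes remove marks of active chromatin. One DNA-binding partner is REST, which recognises a long element called RE1 and keeps neuronal genes off outside neurons. RCOR2 is the family member made at a high level in ESCs, and LSD1 complexes in these cells are also found at active enhancers and promoters. RNA levels alone cannot tell fewer cells with a transcript from less transcript per cell.

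The RE1 element was searched in the RefSeq promoter window of each gene, which runs from 250 bases before to 50 after the start (GRCm38.p6). The letters searched were those of the element in the Lhx3 promoter, which has the form known for RE1, with its 2 spacer bases left free: TTCAGCACCNNGGACAGCGCC, with N for any base, on both strands. A match was scored by how many of the 19 fixed letters were present, and Lhx3 matches itself. The 6 windows below are those that carry the inner core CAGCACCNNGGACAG without a mismatch before the start. Each of these starts had an RCOR2 summit within 1 kb. Capitals mark the stretch aligned to the full motif, with 20 bases on either side.

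Lhx3: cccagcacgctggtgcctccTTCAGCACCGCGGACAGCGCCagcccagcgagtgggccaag
Hrh3: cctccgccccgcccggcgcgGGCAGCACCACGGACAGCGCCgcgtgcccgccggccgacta
Fam163b: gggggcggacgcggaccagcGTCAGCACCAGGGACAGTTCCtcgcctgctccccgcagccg
Fbll1: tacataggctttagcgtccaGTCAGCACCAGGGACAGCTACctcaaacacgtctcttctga
Ogdhl: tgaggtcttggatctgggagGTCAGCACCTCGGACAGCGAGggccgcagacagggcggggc
Lca5: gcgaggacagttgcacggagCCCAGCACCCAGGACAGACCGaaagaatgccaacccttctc

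These stretches lie at chr2:26208252-26208312 on the minus strand for Lhx3, chr2:180104554-180104614 on the plus strand for Hrh3, chr2:27142541-27142601 on the minus strand for Fam163b, chr11:35799036-35799096 on the plus strand for Fbll1, chr14:32321894-32321954 on the plus strand for Ogdhl and chr9:83441268-83441328 on the plus strand for Lca5. All 19 fixed letters were present in Lhx3, 17 in Hrh3, 16 in Fam163b, Fbll1 and Ogdhl, and 14 in Lca5. A seventh promoter with the core, that of Ttc9b, has it just after the start and is not shown.

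The WT libraries held 2368804 and 1286393 counts over 14339 and 13614 genes with at least 1 count. Levels are given as counts per 1e6 counts of the library (CPM), and 1 count was worth 0.422 and 0.777 CPM. Genes were put into 5 classes by their mean CPM over both libraries: 0 counts in both (called silent below), above 0 and under 1, 1 to under 10, 10 to under 100, and 100 and over. Silent means not detected at this depth, since 0 counts over both libraries allow up to 0.821 CPM. The Spearman correlation of the libraries over the 25011 genes was 0.94. Their chi-square per gene was 4.45, so they differed beyond counting error. Of 10 ESC markers all were present, the lowest at a mean of 36.4 CPM, and they summed to 4384 and 4258 CPM. Fibroblast markers summed to 70.1 and 111 CPM, neural markers to 62.9 and 47.4, trophoblast markers to 30.8 and 27.2, mesendoderm markers to 16.9 and 15.5 and primitive endoderm markers to 1.69 and 5.44, while the 3 blood markers were at 0. Most of the fibroblast sum came from Vim (53.6 and 84.0 CPM), of the neural sum from Nes (41.8 and 31.9) and of the trophoblast sum from Krt18 (20.3 and 17.1). Whether such cells were present, and their part in the results, was not tested.

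Genes with RNA carried RCOR2 summits far more often than silent genes. Over all genes 60.1% (15038 of 25011) had at least 1 summit in the extended interval. Among silent genes the share was 31.1% (3025 of 9741; Wilson 95% interval 30.1% to 32.0%). It was 60.0% (58.1% to 61.9%) above 0 and under 1 CPM, 76.1% (74.8% to 77.3%) from 1 to under 10 CPM and 85.6% (84.7% to 86.5%) from 10 to under 100 CPM. At 100 CPM and over it was 86.2% (84.6% to 87.6%), so the intervals of the 2 upper classes overlapped. The intervals, like all others here, cover counting error only. Genes share libraries and neighbouring summits and are not replicates, so no p is given for any of these comparisons.

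The window around the start, which has the same size for every gene, gave a wider gap with all peaks, but a narrower one with stricter peaks only. Over all genes with a listed start 42.7% (7954 of 18635) had a summit within 1 kb. Silent genes had one in 11.7% (776 of 6611; 11.0% to 12.5%) and genes above 0 and under 1 CPM in 31.0% (546 of 1764; 28.8% to 33.1%). The share was 52.7% (1905 of 3613; 51.1% to 54.4%) from 1 to under 10 CPM, 71.1% (3548 of 4991; 69.8% to 72.3%) from 10 to under 100 CPM and 71.2% (1179 of 1656; 69.0% to 73.3%) at 100 CPM and over. With classes set by WT library 1 alone the silent starts were at 13.7% and those of at least 10 CPM at 71.0%, and by WT library 2 alone at 15.0% and 71.1%.

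**Figure D1:**
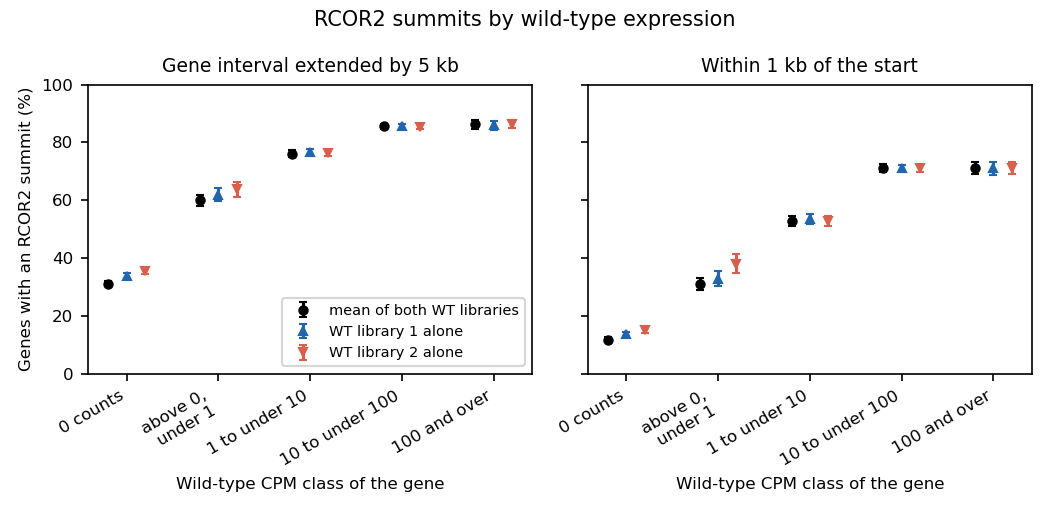
Share of genes with an RCOR2 summit (y axis, percent) in 5 classes of WT expression (x axis, CPM), in the interval extended by 5 kb (left) and within 1 kb of the start (right), with classes set by the mean of both WT libraries or by each alone and bars for Wilson 95% intervals. Both panels climb from silent genes (31.1% and 11.7% by the mean) to genes of 10 to under 100 CPM (85.6% and 71.1%) and are level above that.

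The number of summits followed the same steps. Silent genes held 0.702 summits on average, genes above 0 and under 1 CPM 1.55, and the 3 upper classes 2.21, 2.58 and 2.63. Read the other way, the 9973 genes without a summit had a median of 0 CPM, and 67.3% of them were silent. The 5307 genes with 1 summit had a median of 3.91 CPM (3.80 and 3.89 in the 2 libraries) and 27.9% were silent. Genes with 2 summits had a median of 8.29 CPM, those with 3 to 4 a median of 10.1 and the 2270 with 5 or more a median of 12.8 (12.7 and 13.2 in the 2 libraries). Of that last group 11.3% were silent and 54.0% reached 10 CPM, against 11.6% of the genes without a summit.

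**Figure D2:**
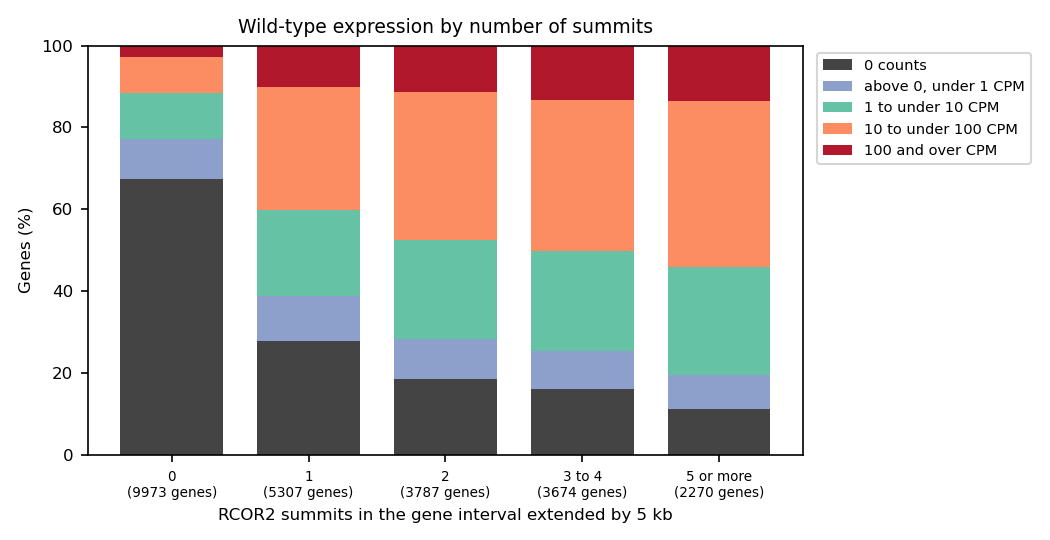
Share of genes in each WT expression class (stacked bars, percent) by the number of RCOR2 summits in the interval extended by 5 kb (x axis, with the number of genes). The silent share goes from 67.3% without a summit to 27.9% with 1 and 11.3% with 5 or more, so the widest step is between 0 and 1 summit.

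The relation was weaker among genes with more RNA. Across all 25011 genes Spearman's correlation between summits and mean CPM was 0.476 (0.463 and 0.456 with each library). Across the 12803 genes with a mean of at least 1 CPM it was 0.10. Gene length moved with both measures, since a longer interval has room for more summits: the rank correlation was 0.40 between length and summits and 0.33 between length and CPM. The median interval was 5.96 kb among silent genes and 25.3 kb from 10 to under 100 CPM. Summits per kb of extended interval still went from 0.0168 in silent genes to 0.0589 at 100 CPM and over.

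In each length quartile the share went up from silent genes to genes of 10 to under 100 CPM, and the intervals of the 2 upper classes overlapped. In the shortest length quartile, up to 4.318 kb, 20.1% of the silent ones (868 of 4329) and 79.6% of those of at least 100 CPM (223 of 280) had a summit. In the longest quartile, from 40.09 kb, these shares were 61.7% (902 of 1463) and 91.6% (492 of 537). The rank correlation between summits and CPM was 0.47, 0.44, 0.41 and 0.28 from the shortest to the longest quartile. Long silent genes thus carried summits about as often as genes of 1 to under 10 CPM in the shortest quartile, of which 63.1% had one.

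Summits gathered at gene starts in every class, silent genes included. In the first 500 bp after the start there were 12.2 summits per kb and 100 starts in silent genes, 33.7 above 0 and under 1 CPM, 64.9 from 1 to under 10 CPM, 91.5 from 10 to under 100 CPM and 89.9 at 100 CPM and over. From 5 to 4 kb before the start the same classes had 1.86, 3.80, 4.43, 5.95 and 6.16. The first 500 bp were therefore 6.55 times as dense as the distant window in silent genes and 15.4 times in genes of 10 to under 100 CPM. The window from 5 to 4 kb upstream was itself 3.31 times as dense at 100 CPM and over as in silent genes. In the 500 bp before the start the densities were 9.29, 26.8, 45.4, 62.5 and 58.9.

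**Figure D3:**
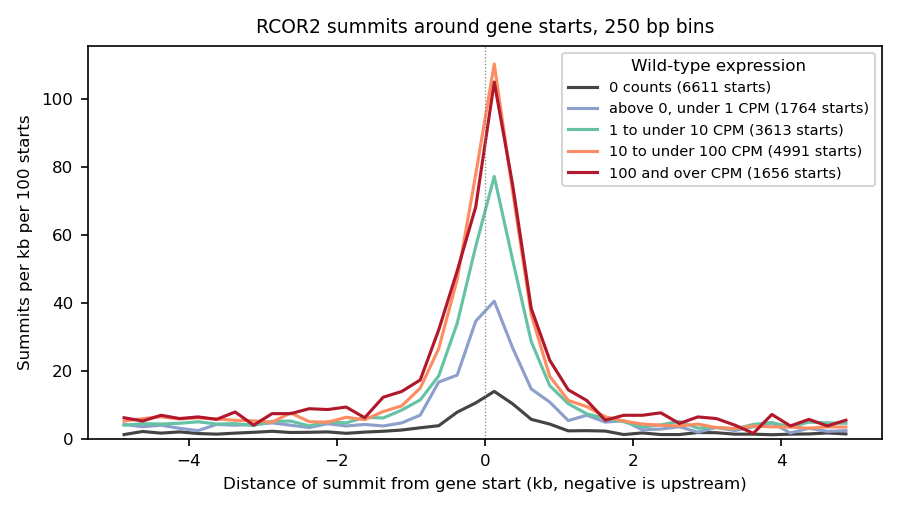
RCOR2 summits per kb per 100 starts (y axis) in bins of 250 bp by distance from the gene start in kb (x axis, negative values upstream), 1 line for each WT expression class. All classes peak just after the start, the silent class lowest and the 2 classes from 10 CPM close together, and the lines are flat beyond about 2 kb.

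Summits lay slightly downstream of the start used, which is the most upstream one listed. Of the 18635 genes 2782 have several listed starts, and the effect of this choice on the offsets below was not tested. The strongest peak of a bound start had its summit a median of 69.5 bp after it in silent genes and 95 bp after it from 10 to under 100 CPM, and 42.0% and 40.1% of these summits lay before the start. Counted along the whole gene, over genes of at least 5 kb with a listed start, the 2 kb around the start took 21.3% of the summits of silent genes and 40.04% of those of genes at 100 CPM and over. The inside of the gene held 53.0% and 36.1%. The gene body nevertheless had more summits per Mb in expressed genes, 25.1 at 100 CPM and over against 8.52 in silent genes. The last part of the gene, 1 kb on either side of its end, took 4.78% of the summits of silent genes and 2.04% of those at 100 CPM and over.

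Promoter sequence moved with both measures. Many mammalian promoters are rich in CpG dinucleotides, a C followed by a G, and such CpG islands mark most housekeeping genes and many developmental regulators. The median promoter window of a silent gene held 3 CpG and that of a gene at 100 CPM and over held 23. The 776 silent starts with a summit had a median of 20 CpG and the 5835 without one a median of 3. The 150 bases before the start of 5 genes show the range, with each CpG in capitals, on the strand of the gene. The strongly expressed and strongly bound Rpl37a comes first, then the strongly expressed and unbound Rpl4, the silent and strongly bound Npas4, the expressed and bound pluripotency gene Nanog, and the silent, unbound liver gene Alb.

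Rpl37a: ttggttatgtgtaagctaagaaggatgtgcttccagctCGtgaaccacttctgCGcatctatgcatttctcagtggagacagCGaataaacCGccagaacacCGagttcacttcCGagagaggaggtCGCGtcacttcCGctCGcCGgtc
Rpl4: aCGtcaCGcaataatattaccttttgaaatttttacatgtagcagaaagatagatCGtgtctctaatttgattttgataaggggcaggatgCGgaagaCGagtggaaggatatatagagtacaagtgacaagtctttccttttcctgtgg
Npas4: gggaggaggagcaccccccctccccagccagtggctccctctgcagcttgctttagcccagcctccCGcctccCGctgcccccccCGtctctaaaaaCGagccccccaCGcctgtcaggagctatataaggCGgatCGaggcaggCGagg
Nanog: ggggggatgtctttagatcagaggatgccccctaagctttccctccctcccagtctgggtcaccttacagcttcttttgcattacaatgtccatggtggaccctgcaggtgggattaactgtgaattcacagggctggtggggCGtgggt
Alb: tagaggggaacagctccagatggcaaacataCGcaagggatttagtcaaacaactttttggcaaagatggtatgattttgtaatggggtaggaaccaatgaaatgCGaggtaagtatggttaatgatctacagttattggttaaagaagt

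They are chr1:72711110-72711259 (plus) for Rpl37a with 11 CpG, chr9:64173237-64173386 (plus) for Rpl4 with 5, chr19:4989972-4990121 (minus) for Npas4 with 8, chr6:122707339-122707488 (plus) for Nanog with 1 and chr5:90460720-90460869 (plus) for Alb with 2. The whole windows of 300 bases held 24, 13, 21, 4 and 3 CpG in that order. Nanog and Alb had nearly the same CpG content, yet Nanog had 2 summits within 1 kb of its start and Alb had 0.

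At a given CpG content expressed starts were bound more often, and the gap was narrowest at the highest CpG content. With 0 to 4 CpG in the window 1.54% of silent starts (63 of 4084) and 33.3% of those at 100 CPM and over (17 of 51; 22.0% to 47.0%) had a summit. With 5 to 9 CpG the shares were 9.30% and 66.7%, and with 10 to 19 CpG 32.6% and 68.0%. With 20 CpG or more they were 61.4% (389 of 634; 57.5% to 65.1%) and 74.5% (814 of 1092; 71.9% to 77.0%). Silent starts in this last group were thus bound more often than the most expressed starts with 0 to 4 CpG. Over the 18635 starts the rank correlation was 0.59 between summits and CpG, 0.50 between summits and CPM and 0.60 between CpG and CPM. Which of the 2 moves with binding on its own was not tested.

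**Figure D4:**
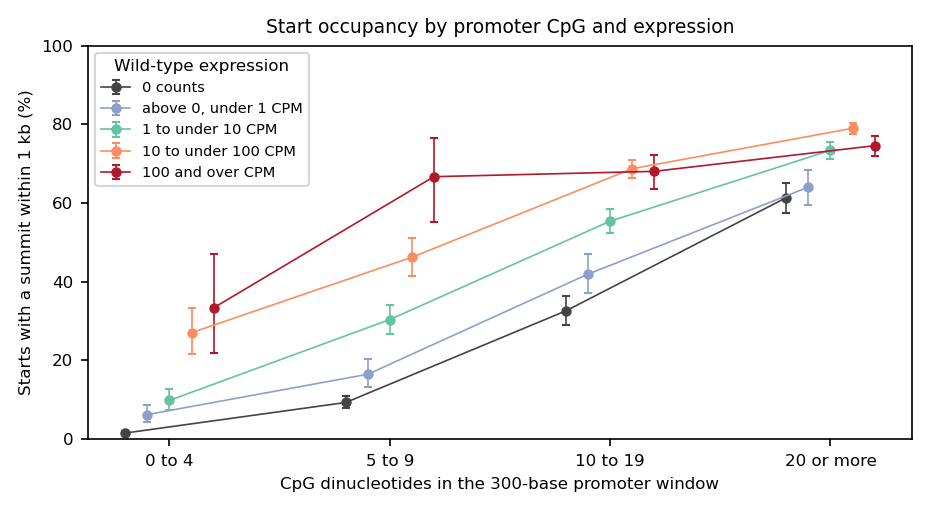
Share of starts with an RCOR2 summit within 1 kb (y axis, percent) by CpG dinucleotides in the 300-base promoter window (x axis), 1 line for each WT expression class, with Wilson 95% intervals. The lines lie far apart at 0 to 4 CpG (1.54% silent, 33.3% at 100 CPM and over) and close at 20 or more (61.4% and 74.5%).

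Silent genes with a bound start lay near expressed genes more often than other silent genes. Of the 776 with a summit, 204 starts (26.3%; 23.3% to 29.5%) lay inside or within 1 kb of a gene of at least 1 CPM, and 156 (20.1%) had the start of such a gene within 2 kb. Of the 5835 without a summit these numbers were 324 (5.55%; 4.99% to 6.17%) and 94 (1.61%). The part of neighbours in the binding of silent genes was not tested.

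How strongly a start was bound followed expression in another way than whether it was bound. The fold here is the authors' enrichment of ChIP over control at the summit, used within the list only. The strongest peak at a start had a median fold of 4.61 in silent genes and 4.84 from 10 to under 100 CPM, a difference of 1 step of the tied fold values in the list. Over the 7954 bound starts the rank correlation between fold and CPM was 0.0075. The strong end was different: a fold of at least 10 was found at 4.77% of the bound silent starts (37 of 776; 3.48% to 6.503%) and at 5.68% above 0 and under 1 CPM (31 of 546; 4.03% to 7.95%). From 1 to under 10 CPM it was 3.15% (60 of 1905), from 10 to under 100 CPM 1.804% (64 of 3548; 1.42% to 2.297%) and at 100 CPM and over 1.61% (19 of 1179; 1.03% to 2.50%). Over all starts, bound or not, these were 37 of 6611, 31 of 1764, 60 of 3613, 64 of 4991 and 19 of 1656. So counted, the share was lowest in silent genes, and 143 of the 211 strongly bound starts were at 1 CPM and over.

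Sorted by strength, the 4656 starts bound at a fold under 5 had a median of 16.5 CPM and the 3087 from 5 to under 10 a median of 18.6 CPM. The 158 starts from 10 to under 15 had a median of 6.54 CPM (6.75 and 6.22 in the 2 libraries). The 53 starts of at least 15 had a median of 1.23 CPM (0.844 and 0.777), and 26 of them (49.1%; 36.1% to 62.1%) were under 1 CPM, 16 of these silent. Under 5 the share below 1 CPM was 17.03%. The CpG content of the windows was alike, with medians of 22, 23, 22 and 19 from the weakest to the strongest group.

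The 5 strongest peaks at silent starts lay at genes known from neurons and secretory cells. Npas4, an activity-induced transcription factor of neurons (chr19:4984353-5003439), had 0 counts in both libraries and a peak of fold 42.6 at chr19:4988577-4989795, 795 bp after the start. Iqsec3, a regulator of small GTPases at inhibitory synapses (chr6:121372927-121473738), had a peak of fold 33.0 at chr6:121472912-121473990, 415 bp after the start. Barhl1, a homeobox factor of developing neurons (chr2:28907680-28917984), reached 22.2, Cacng3, a calcium channel subunit family member that accompanies AMPA receptors (chr7:122671744-122769393), 21.1, and Scg3, a granin of secretory granules (chr9:75643366-75685959), 19.9. All 5 were at 0 counts in both libraries.

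The 5 strongest peaks at starts of at least 100 CPM were of lower fold. Yif1a, a membrane protein of the early secretory pathway (chr19:5088538-5092879), was at 125 and 103 CPM and had a peak of fold 19.0 at −537 bp from its start. Ccdc124, a ribosome-associated factor (chr8:70868226-70873490), was at 116 and 117 CPM with a fold of 17.7. Rpl37a, a protein of the large ribosomal subunit (chr1:72711260-72713813), was at 932 and 889 CPM with a fold of 14.7 at −429 bp from its start. Mkrn1, a ubiquitin ligase (chr6:39397804-39423299), was at 220 and 229 CPM with 14.4, and Slc16a1, a lactate transporter (chr3:104638664-104658462), at 104 and 113 CPM with 13.7.

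RE1 matches of at least 16 letters lay mostly under the strong end of the distribution. At least 16 of the 19 letters were found in 19 of all 18635 promoter windows (0.102%), Lhx3 itself among them. Of these 19, 17 had a summit within 1 kb and 11 had a fold of at least 10. Among the 211 starts bound at a fold of at least 10, 11 (5.21%; 2.94% to 9.09%) held such a match, against 2 of the 10681 starts without a summit (0.0187%; 0.00514% to 0.0683%). The match and the summit were close, within 50 bp in 13 of the 17 and at a median of 16 bp. The 7 promoters with the unbroken core all had a summit, 6 of them at a fold of at least 10. A looser cut of at least 15 letters gave 51 windows, of which 39 had a summit within 1 kb and 13 a fold of at least 10.

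Few genes with an RE1 match of at least 16 letters reached 10 CPM, which depends on the cut. Of the 51 with at least 15 letters, 16 were from 10 to under 100 CPM and 1 was at 100 CPM and over. The 19 with at least 16 letters had a median of 1.02 CPM. Over all placed genes, which include genes without a listed start, it was 1.17 CPM. Of the 19, 9 were under 1 CPM, 4 of these silent, and 2 reached 10 CPM. Of all 18635 starts 6611 were silent, a further 1764 were under 1 CPM and 6647 reached 10 CPM. Lhx3, a LIM homeobox factor of motor neurons and pituitary, was at 0.844 and 0 CPM, with a peak of fold 11.7 whose summit was 17 bp from the match. Hrh3, the presynaptic histamine receptor, had 0 counts and a peak of 16.7 with the summit 4 bp away. Ttc9b was at 1.69 and 0 CPM with the strongest peak of the set, 19.3, and Dner, a Notch ligand of neurons, at 0.844 and 0.777 CPM with 16.97. Ogdhl, a relative of a mitochondrial dehydrogenase, and Lca5 were the 2 genes with the core from 10 to under 100 CPM. Ogdhl was at 35.5 and 67.6 CPM, with a peak of fold 11.7 and its summit 23 bp from the match. Crip2 was also expressed, at 54.0 and 77.7 CPM, with a fold of 8.50.

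In 2 genes a match of at least 16 letters had no summit within 1 kb. Celsr3, an adhesion receptor of axons, was at 1.27 and 0.777 CPM and had 4 summits elsewhere in its extended interval, the strongest of fold 27.5. Rasgrf1 was at 0 and 0.777 CPM. A match describes letters and not a bound site.

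Outside chromosome 18, the genes with the most summits were long and many lay on chromosome 3. Ank2, an ankyrin that anchors membrane proteins (chr3:126921607-127500347), had 65 summits at 7.18 and 5.44 CPM. Bcar3, a signalling adaptor (chr3:122419757-122530191), had 52 at 38.0 and 45.9 CPM, and Lef1, a WNT-responsive transcription factor (chr3:131110297-131224357), 42 at 42.2 and 38.9 CPM. Etl4 on chromosome 2 had 38 at 99.2 and 74.6 CPM, and the sphingomyelin synthase Sgms2 on chromosome 3 had 38 at 1.69 and 4.66 CPM. The others were Manba with 33, the CoREST partner Gse1 with 32, Abca4 with 30, the chromatin reader Zmynd8 with 29 and Dlgap1 with 28. Their levels ran from 0 and 0.777 CPM in Abca4, the transporter of photoreceptors, to 170 and 159 CPM in Zmynd8, so a high number of summits was found at low and at high levels.

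Of these 10 genes 6 lie on chromosome 3, where summits were crowded. The median 1 Mb bin held 13 summits and 25 bins held more than 100, of which 5 were on chromosome 3. The 4 fullest bins of the genome were chromosome 3 from 104 to 105 Mb with 252 summits, 121 to 122 Mb with 209, 131 to 132 Mb with 186 and 122 to 123 Mb with 176. Their peaks were weaker than usual, with median folds of 3.72, 3.70, 3.72 and 3.81 against 4.38 over all peaks. With peaks of a fold of at least 5 only, Ank2 kept 18 summits, Bcar3 15, Lef1 4, Sgms2 7, Manba 10 and Abca4 4, whereas Gse1 on chromosome 8 kept 12 and Dlgap1 on chromosome 17 kept 13. The order of these genes therefore depends on the threshold, and the part of the crowding in their counts was not tested.

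Apart from chromosome 18, whose genes were not ranked, the silent genes with the most summits were mostly large genes. Pakap (chr4:57434475-57896984) had 21 summits, the syntrophin Sntg1 (chr1:8359739-9301657) 19, and Schip1 (chr3:68064802-68626482) 17, which it shares with the overlapping gene Iqschfp. The sources used here do not say how reads shared by overlapping genes were counted, so the 0 counts of Schip1 and Iqschfp are uncertain. Ctnna3, an alpha-catenin with an interval of 1573.57 kb, had 16, and Sez6l 13. Ccl21b, a chemokine gene in a region of near-identical copies, had 13, and its counts are uncertain. Asic2, an acid-sensing ion channel, Fam189a1 and the glypican Gpc5 had 12 each. All 10 had 0 counts in both libraries.

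The most abundant transcripts were not the most bound, in a ranking that again leaves out chromosome 18. Hsp90ab1, the constitutive heat shock protein 90 (chr17:45567778-45573261), was highest at 15699.5 and 16686 CPM and had 4 summits. Npm1, the nucleolar protein nucleophosmin, was at 5058 and 5310 CPM with 5, Pabpc1, the poly(A)-binding protein, at 5124 and 4338 CPM with 1, Ncl, nucleolin, at 4403 and 4771 CPM with 2, and Eif2s2, a translation initiation factor subunit, at 4951 and 4119 CPM with 2. The other 5 of the 10 were ribosomal protein genes. Rps19 (4212 and 3918 CPM) had 2 summits, Rpl23a (3551 and 2891 CPM) 5 and Rpl23 (3723 and 2509 CPM) 4, while Rpl4 (3790 and 2757 CPM) and Rpl31 (3428 and 2868 CPM) had 0.

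Of the 10 most abundant ranked genes without a summit 6 code for ribosomal proteins, namely Rpl4, Rpl31, Rpl41, Rps26, Rps3 and Rps12. The others were Serbp1, an RNA-binding protein of the ribosome, at 3080 and 2631 CPM, Rack1, a ribosomal scaffold, at 2655 and 2614 CPM, Sub1, a transcriptional coactivator, at 2188 and 2059 CPM, and the superoxide dismutase Sod1 at 1437 and 1734 CPM. The nearest summit lay at −5504 bp from the start in Rpl31, the closest of the 10, and at −36525 bp in Sub1, the farthest, with negative values upstream. They are not poor in CpG, with 13 (Rpl4) to 34 (Sod1) in the window.

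Start binding was less frequent among ribosomal protein genes of the cytosol than among other genes of at least 100 CPM. Of the 62 with a listed start 25 (40.3%) had a summit within 1 kb, near the 42.7% of all genes, at a median level of 851 CPM. At 100 CPM and over, 21 of 53 (39.6%; 27.6% to 53.1%) had one, against 1158 of 1603 other genes (72.2%; 70.0% to 74.4%). The ribosomal protein genes were the higher in RNA, with a median of 907 CPM against 193 CPM, so the groups are not matched in level. With 10 to 19 CpG 9 of 19 (47.4%; 27.3% to 68.3%) and 291 of 422 (69.0%; 64.4% to 73.2%) had a summit, with overlapping intervals. With 20 CpG or more the shares were 12 of 32 (37.5%; 22.9% to 54.7%) and 802 of 1060 (75.7%; 73.0% to 78.1%). In the extended interval, with genes under 10 kb only, they were 47 of 72 (65.3%; 53.8% to 75.2%) and 463 of 553 (83.7%; 80.4% to 86.6%). Ribosomal protein genes have many processed pseudogenes, and the sources used here do not say how shared reads were counted or aligned, which leaves these values uncertain. The mitochondrial ribosomal protein genes had a bound start in 44 of 69 (63.8%; 52.0% to 74.1%) at a median of 105 CPM, and proteasome subunit genes in 19 of 32 (59.4%; 42.3% to 74.5%) at 287 CPM.

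The pluripotency genes, which keep ESCs undifferentiated, were nearly all bound, as were most expressed genes. Over all genes the shares were 60.1% in the extended interval and 42.7% at the start. Over genes of at least 10 CPM they were 85.8% and 71.1%. All 12 core factors had a summit, with a median of 6 summits where all genes have 1, and all 9 with a listed start had one within 1 kb. Nanog (chr6:122707489-122714633) was at 452 and 460 CPM and had 8 summits. The growth factor Fgf4 was at 293 and 329 CPM with 7, Pou5f1 at 34.6 and 38.1 CPM with 6, and Sox2 at 993 and 1030.01 CPM with 5. Tdgf1, a Nodal co-receptor, was at 1108 and 1071 CPM with 6, and the RNA-binding protein Lin28a was low, at 7.18 and 10.9 CPM, with 4. Of 16 naive factors 15 had a summit and 8 of 11 starts did (72.7%), near the start share of all genes of at least 10 CPM. Esrrb, a nuclear receptor, had 17 at 184 and 160 CPM and Tfcp2l1 9 at 179 and 295 CPM. The 1 without a summit was Nr0b1 on the X chromosome, at 55.3 and 41.2 CPM.

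The neuronal targets of REST were all bound too, at much lower RNA levels than the pluripotency genes. All 30 had a summit in the extended interval and 13 of 16 starts had one within 1 kb, at a median level of 1.52 CPM, while all genes have a median of 1.17 CPM. Their starts were bound at a median fold of 10.8 against 4.61 over all bound starts. A peak of fold 10 or more lay in the extended interval of 18 of the 30, against 961 of all 25011 genes. Atp2b2, a calcium pump and like Snap25 and Stmn3 chosen after its values were seen, had the strongest, 34.4, at 2.53 and 2.33 CPM. Snap25, a synaptic SNARE protein, was at 0.844 and 0 CPM with 1 summit of fold 24.7. Stmn3, a microtubule regulator, was at 2.96 and 5.44 CPM with 20.2 at its start, and Unc13a, a vesicle priming factor, at 7.60 and 8.55 CPM with 17.2. Stmn2 differed in level, at 520 and 393 CPM, and its strongest peak was of fold 6.21. The list was drawn up as targets of a factor that CoREST proteins work with, and its members have long intervals, a median of 49.9 kb against 14.8 kb over all genes.

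Lists of regulators of other lineages had a summit in 66.7% to 75% of their genes, against 60.1% of all genes. Their start shares varied around the 42.7% of all starts. Of 15 neural progenitor factors 11 had a summit and 7 of 12 starts did, at a median of 0.389 CPM and with no fold of 10 or more. The transcription factor Sox1 had 6 summits at 0.422 and 0 CPM, while Emx2, Hes5 and Pax6 were among those with none. Of 39 Hox genes 26 had a summit and 7 of 22 starts did, 66.7% and 31.8%, with 17 of the genes silent, and neighbouring Hox genes share summits. Of 12 mesoderm and definitive endoderm factors 8 had a summit and 5 of 11 starts did, with 7 silent, and T, Cer1, Gata5 and Msgn1 had neither counts nor summits. Trophoblast factors had a summit in 9 of 12 and at 2 of 9 starts, with 12 summits in Tead4 at 6.75 and 6.996 CPM. Primitive endoderm factors had one in 9 of 12 and at 1 of 6 starts, that of the collagen gene Col4a1 at 25.3 and 26.4 CPM.

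Starts of muscle, liver and blood genes were seldom bound, as were silent starts, while fibroblast genes had a summit at 3 of 5 starts. Of all starts 42.7% had a summit and of silent starts 11.7%. In the extended interval 4 of 15 muscle, 3 of 15 liver and 4 of 17 blood genes had one, against 31.1% of silent genes. Of these lists 6, 9 and 11 genes were silent. None of 12 starts of muscle structural genes (0%, up to 24.2%) and none of 12 of liver secretory genes had a summit, and 1 of 13 starts of blood and immune genes did, that of Hba-a2 at 0 CPM. Mylpf was an exception in both measures, with 6 summits in the extended interval and 489 and 495 CPM. Of 1125 olfactory receptor genes 62 (5.51%; 4.32% to 7.002%) had a summit and 4 of 943 starts (0.424%; 0.165% to 1.09%), and 1102 of the genes were silent. Vomeronasal receptors had 30 of 331 and 3 of 299, keratins and keratin-associated genes 12 of 100 and 1 of 80, and defensins 4 of 65 and 0 of 41. The promoters of these 4 families held a median of 1 to 3 CpG.

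Germline genes, which are methylated and off in most somatic cells, had a bound start in 13 of 17 (76.5%), at a median of 23.8 CPM. This is near the 71.1% of all starts of at least 10 CPM. Over all starts the share was 42.7%, among silent starts 11.7% and from 1 to under 10 CPM 52.7%. Dazl, an RNA-binding protein of germ cells, was at 324 and 297 CPM with 2 summits at its start, and Smc1b, a meiotic cohesin, at 95.8 and 86.3 CPM with 2. Sycp3, a protein of the synaptonemal complex, was at 44.3 and 40.4 CPM with 0. Histone genes had a bound start in 52 of 63 at a median of 2.34 CPM, and 11 of 13 silent starts were bound. They lie in clusters where genes share summits, and their near-identical copies make their counts uncertain. Of 393 Zfp zinc finger genes 315 had a summit and 213 of 326 starts did (65.3%; 60.0% to 70.3%), at a median of 8.74 CPM. Potassium channel genes had a summit in 63 of 92 and at 25 of 67 starts (68.5% and 37.3%), near the shares of all genes, with 51 of the 92 silent.

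**Figure D5:**
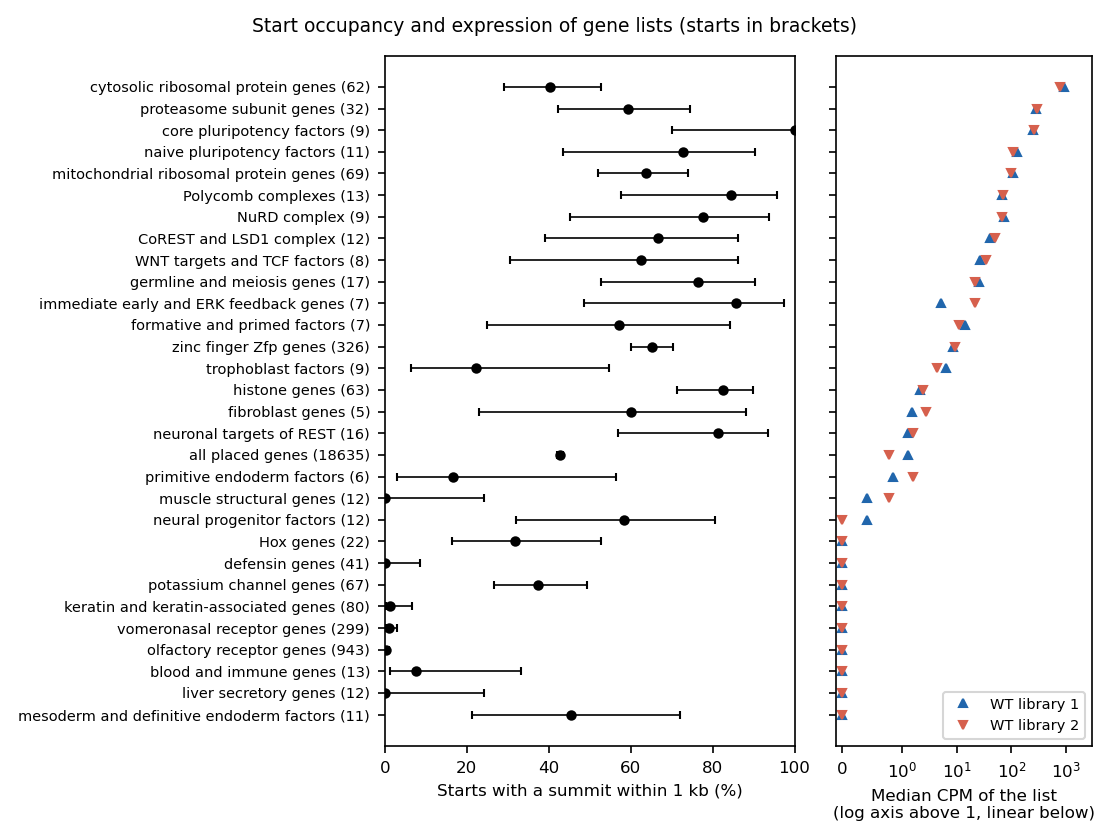
Share of starts with an RCOR2 summit within 1 kb (left, percent, Wilson 95% intervals, number of starts in brackets) and median WT CPM in each library (right, log axis above 1 and linear below) for each gene list with listed starts and for all genes, ordered by median CPM. Core pluripotency factors (9 of 9) and neuronal targets of REST (13 of 16) are both high on the left but lie at a median of 256 and 1.52 CPM on the right, and cytosolic ribosomal protein genes have the highest median (851 CPM) with 40.3% on the left.

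The genes of the complex itself were bound about as often as other expressed genes. Of 15 members and partners of CoREST and LSD1 13 had a summit and 8 of 12 starts did (86.7% and 66.7%), at a median of 44.1 CPM. All genes of at least 10 CPM had shares of 85.8% and 71.1%. Kdm1a, which codes for LSD1, had 4 summits at 268 and 306 CPM, Rcor1 4 at 34.6 and 36.5 CPM, Hdac1 6 at 304 and 310.2 CPM and Rest 6 at 410 and 379 CPM. Gse1 had the most, 32, at 13.9 and 24.9 CPM. Rcor2 was at 81.5 and 83.2 CPM with 9 summits, but reads there may stem from the tagged construct, which cannot be told apart from binding. The transcription factor Gfi1, at 0 CPM, and Zmym3 on the X chromosome, at 40.5 and 24.1 CPM, had none. Of 16 Polycomb genes 15 had a summit and 11 of 13 starts did, and of 12 NuRD genes 10 and 7 of 9.

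The X chromosome stood apart. Of its 1093 genes 166 (15.2%) had a summit, although 40.8% had at least 1 CPM. Among its genes of at least 10 CPM 63 of 263 (24.0%; 19.2% to 29.5%) had one, whereas each autosome had between 80.6% and 90.9%. At the starts of such genes it was 23 of 229 (10.0%), against 63.7% to 81.7% over the autosomes with listed starts. The called peaks on X had a median fold of 4.61, against 4.38 over all peaks. Only called peaks are listed, so this median cannot show whether binding on X was weaker in general. With chromosomes X and Y left out, the gap between starts of at least 10 CPM and silent starts was 60.9 percentage points, against 59.4 with them. Why summits are few on X was not tested.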

How the data were processed

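RNA was measured as raw counts per gene symbol, deposited by the authors, in 2 WT libraries. Per the submitters' processing notes the tools included Trimmomatic 0.36, STAR 2.5.2b, SAMtools 1.8 and featureCounts, with GRCm38 and mm10 as builds. The sources used here do not give strand use, molecular identifiers or the handling of shared reads. The RCOR2 peaks carry a fold ratio of ChIP over control and −log10 q values, deposited by the authors, and the notes name Bowtie2 2.3.4.1 and MACS2 2.1.1.20160309. Each peak also has a deposited score, which was not used. Peak names show merged libraries, and the sources used here do not name the control of the call. The 2 ChIP samples were read in different ways, single-end and paired-end, per the labels' protocols.

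CPM were computed per 1e6 counts of a library. Genes were placed on the RefSeq table of GRCm38.p6, 24695 by symbol and 316 by a synonym. Of the rest, 26 rows carry a date in place of a symbol, and all 120 unplaced rows hold 2.26% and 3.71% of the counts, mostly Rn45s (2.08% and 3.51%). Strand and starts came from the RefSeq promoter table, taking the most upstream listed start. None was used for chromosome 18. For 1723 of the 18635 genes (9.25%) the listed start lay over 1 kb from the edge of the gene interval. Summits within overlapping intervals counted for each gene, which applied to 13.0% of the peaks, and 37.2% fell in no extended interval. Counting at starts was tested on simulated summits, and counting in extended intervals against direct counts of the real peaks for a random sample of genes. Calculations used Python 3.11.15, pandas 2.3.3, scipy 1.17.1 and, for TMM scaling, edgeR 4.0.16 in R 4.3.3.

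Genes named are the 10 protein-coding genes with the most summits, the 10 of highest CPM, the 10 of highest CPM without a summit, the 10 silent genes with most summits, the 5 silent and 5 genes of at least 100 CPM with the strongest start peaks, and up to 6 per list by summit number or level. Genes of chromosome 18, Rcor2 and date rows were left out of these rankings. Genes with an RE1 match and some list members were named after their values were seen. The peaks, genes and lists were chosen with earlier results of these data known. Alternatives covered peak thresholds, gene sets, scaling, each library alone, interval and start windows, and chromosomes left out.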

Additional observations from a re-analysis of the deposited data

How the results depend on the processing

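The gap in share with a summit between genes of at least 10 CPM and silent genes was 54.7 percentage points in the extended interval and 59.4 at the start, the rank correlation over all genes was 0.476, the median CPM of genes with 5 or more summits exceeded that of genes without by 12.8, and the 1 kb around starts of at least 10 CPM was 12.7 times as dense as the window 5 to 4 kb upstream. In that order, peaks of a −log10 q of at least 5 gave 43.1, 36.1, 0.375, 16.7 and 11.9, and peaks of a fold of at least 5 gave 34.5, 25.1, 0.317, 14.3 and 11.2. Each library alone gave 50.2 to 51.9, 56.1 to 57.3, 0.456 to 0.463, 12.7 to 13.2 and 12.6 to 13.2. These 5 kept their direction under every alternative run. The gap at the start was wider than that in the extended interval with all peaks, but narrower with both peak thresholds. The median start fold of silent minus expressed genes was −0.23. It reversed to 0.23 and 0.46 with the same 2 thresholds, which remove weak peaks by construction, was 0 without chromosome 3 and −0.026 with the edge of the gene interval as start. Protein-coding genes alone gave 61.1 at the start, 0.446 and 15.1 CPM. Genes of at least 1 CPM in both libraries gave a rank correlation of 0.062 and 9.73 CPM, and no value for the gaps, since none is silent. The gene interval alone gave 51.3, 0.427 and 12.1 CPM, an extension of 1 kb 58.0 and 0.484, and the nearest gene 14.6 CPM. Start windows of 500 bp and 2 kb gave gaps of 53.9 and 60.5, any listed start 60.9, and the interval edge 56.2 with a density ratio of 12.2. Silent taken as under 1 CPM in both libraries gave 50.5 and 56.4. Without chromosomes X and Y the gap at the start was 60.9 and the rank correlation 0.481. The last alternatives on chromosomes and listed starts were chosen after seeing the data. TMM scaling changed none of the 6 values by more than the spread of the libraries. Of 240 values of 48 named genes under an alternative, 154 stayed within 1.5 times or 1 SD and 86 moved. The planned scaling by transcript length was not run, as no transcript lengths were used here. No paired analysis was possible because the peak list is 1 merged list and only 1 group of RNA libraries enters. Depth limits what silent means, at 3 counts over both libraries or 0.821 CPM.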

Other observations

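Further fixed lists fill in the picture. All 12 immediate early and ERK feedback genes had a summit and 6 of 7 starts did, at a median of 14.0 CPM that differed between the libraries (5.07 and 20.99). The ETS factor Etv5 had the most, 13, at 129 and 116 CPM, and Myc had 6 at 0.422 and 1.55 CPM. Of 12 WNT targets and TCF factors 11 had a summit, with 10 in Tcf7l1, a WNT-regulated repressor, at 132 and 94.8 CPM. Fibroblast genes had one in 6 of 12 and at 3 of 5 starts, the most in the matrix gene Fn1, with 6 at 356 and 396 CPM. The protocadherin genes, adhesion molecules of neurons, had one in 37 of 58 (63.8%), near the 60.1% of all genes. Their median was 5 summits, and 48 were silent. Among silent genes of the longest length quartile 61.7% had a summit, and the protocadherin genes had a median interval of 88.2 kb. They include silent genes of chromosome 18 with up to 19 summits, which the ranking of silent genes leaves out. Clustered protocadherin genes overlap one another and share summits, and none had a listed start. How reads shared by overlapping genes were counted is not known here, so their counts are uncertain too.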
